A study of Mus musculus with 8 samples.

Results

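The genes described here are 39 markers of the enteric nervous system and of the gut's pacemaker cells, measured on arrays of whole small intestine from mouse fetuses with and without the transcription factor gene Plagl2. They were chosen by symbol as known markers of enteric neurons, enteric glia and interstitial pacemaker cells. A probe set, a group of short probes that reads 1 transcript, was counted for a member where the platform annotation lists exactly 1 gene symbol for it. This gave 82 probe sets for 37 of the 39 genes, among 18193 genes with such a probe set in all. Of these, 56 probe sets of 35 genes were bright enough to be tested. Foxd3 and Chat had probe sets that were all below the limit on dim signals. Etv1 is listed on probe sets that also carry a second symbol, and Fabp8 had no probe set under that symbol.

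The enteric nervous system arises from neural crest cells that migrate into the gut wall and become neurons and glia in ganglia between and beside the muscle layers. Their spread depends on the growth factor GDNF, which binds the co-receptor GFRA1 and signals through the receptor tyrosine kinase RET, and on endothelin 3 with its receptor EDNRB. Interstitial cells of Cajal, which pace the rhythmic contraction of the muscle, come from gut mesenchyme. They need the receptor KIT and its ligand, and carry the calcium-activated chloride channel ANO1. All of these cells are a minor part of a whole intestine, so in these samples fewer cells of a type and less RNA per cell cannot be told apart.

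The samples were small intestines of fetuses at 18.5 days post coitum, 4 labelled as Plagl2 knockout and 4 as wild-type, with 1 Affymetrix MOE430 2.0 array each. Plagl2 encodes a DNA-binding zinc finger protein of the PLAG family. Strain, allele design and litters were not given in the labels, and p-values here speak only of the spread among these 8 samples, which may in part be technical. The extraction text speaks of wild-type tissue for every sample, while titles and source names give the genotypes.

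The Plagl2 probe set 1417517_at gave 697 to 824 in the wild-type and 3 to 11 in the knockout arrays, so its signal was near 0 in every array titled knockout. Median signals were 36 to 42 per array. Wild-type replicate 3 stood apart from the other wild-types on the axis of largest variance (-21.9 against -44.7 to -43.3). Knockout replicates 2 and 3 carried signal of Xist, which is transcribed from the inactive X chromosome in females, at 1828 and 1410, against 20 to 47 elsewhere. Sex was therefore not balanced between genotypes. RNA integrity was gauged by the log2 of 3' over 5' signal, averaged over the control probe sets of beta-actin and Gapdh. This integrity ratio was -0.055 to 0.0066 in wild-types and 0.017 to 0.098 in knockouts. The ranges do not overlap, so a fit with the ratio as a covariate cannot cleanly separate it from genotype.

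The labelled tissue was checked against markers. Epithelial markers were bright (Epcam 4594 to 5041 in wild-types) and so were those of smooth muscle (Acta2 4076 to 6016), the main tissues of a gut wall. Neuronal members were dim but present: the transmitter peptide gene Vip gave 129 to 156 in wild-types and the axonal growth gene Gap43 gave 68 to 174. Of 8 transmitter and peptide genes 7 were bright enough to test, and Chat, which makes acetylcholine, was not (3 to 37 over all arrays). Among glial markers, Gfap, the glial intermediate filament, lay near the limit (6 to 44). The myelin protein gene Pmp2, a current name of Fabp8 that the rule did not use, gave 2 to 16.

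Most of these genes did not pass the test between genotypes. In limma, with Benjamini-Hochberg adjustment over all 27023 probe sets tested and each gene read by its brightest tested probe set, 1 of the 35 genes rose in the knockout and 2 fell. Over all 12838 genes tested, 6.6% were called higher, 8.5% lower and 15.1% in either direction. The gene that rose was L1cam, a cell adhesion molecule of migrating crest cells and growing axons. Those that fell were Edn3, which encodes endothelin 3, and S100b, a calcium-binding protein of glia.

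Although few were called, differences were mostly above 0. The estimate was higher in the knockout for 29 of 35 genes, with a median of 0.39 on the log2(signal + 16) scale. Over all genes tested the median was 0.03 and 53.3% of estimates were above 0. The lowest mean log2 value tested was 5.286. Gfra1 and Th had wild-type means under it (5.238 and 5.228), so they passed the limit on dim signals only through the knockout arrays. S100b and Gfap, with estimates below 0, had knockout means under it (5.258 and 5.282) and passed only through the wild-type arrays. Standard errors of members ran from 0.091 to 0.34, with a median of 0.23, against 0.16 for all genes. An unadjusted p under 0.05 was reached by 13 members with a higher and 2 with a lower estimate, of which all but L1cam, Edn3 and S100b missed the adjusted threshold. Over all genes tested, 14.7% were higher and 15% lower at that unadjusted threshold. Of the members that passed the unadjusted but not the adjusted threshold, the highest estimates were those of Gdnf, Elavl2, Elavl4 and Kit.

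**Figure D1:**
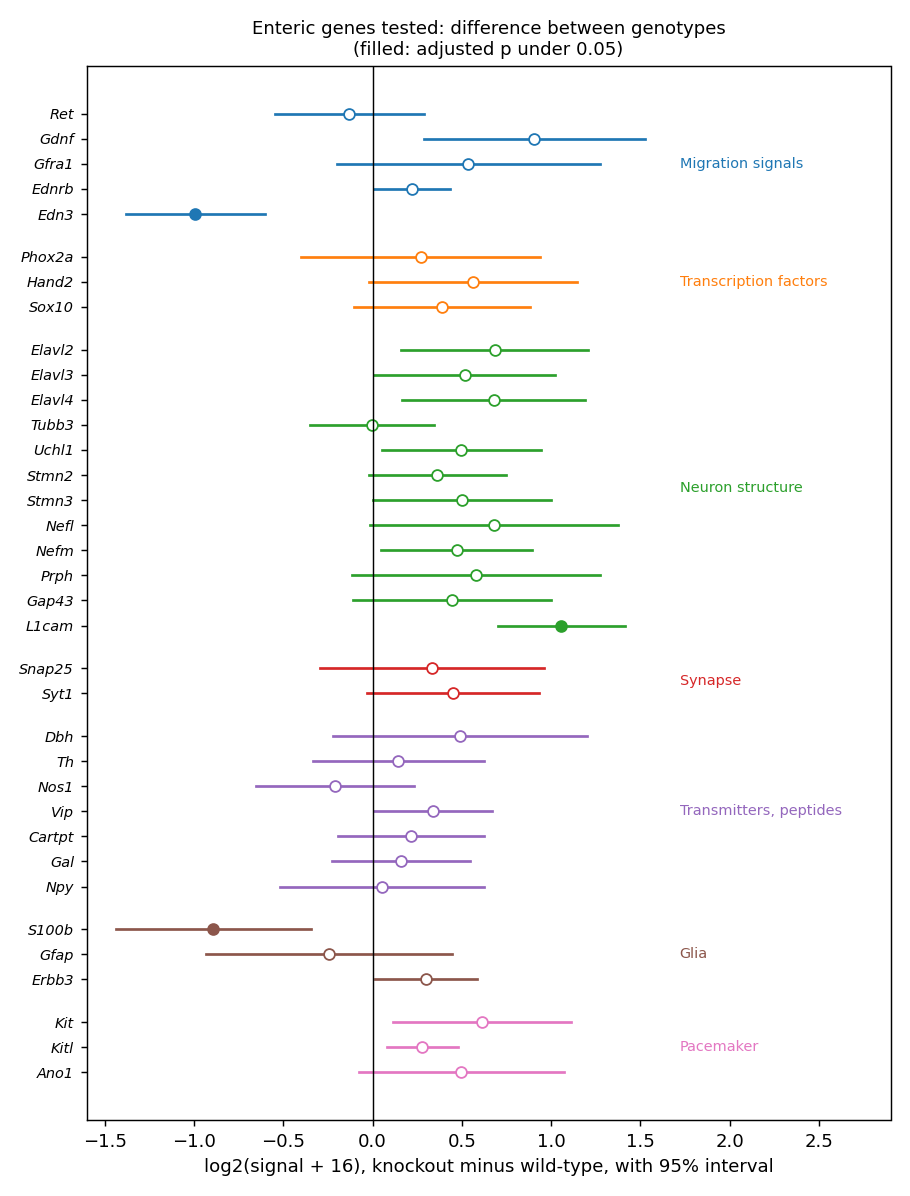
Difference between knockout and wild-type in log2(signal + 16) for the 35 members tested, grouped by role, with 95% intervals from the fit of 4 against 4 arrays; filled points have an adjusted p under 0.05. L1cam, Edn3 and S100b are filled, and 29 of the 35 estimates lie to the right of 0.

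L1cam showed the clearest difference. Its probe set 1450435_at gave 96, 67, 82 and 68 in wild-type replicates 1 to 4 and 197, 181, 134 and 211 in knockout replicates 1 to 4. Every knockout array was above every wild-type array, and knockout replicate 3 was the lowest of them. The log2 difference was 1.06 ± 0.16 (SE, 95% interval 0.70 to 1.41, limma adjusted p = 0.00109). L1cam lies on the X chromosome. In the 6 arrays without Xist signal, which are all male by the Y-linked gene Eif2s3y (562 to 770), the difference was 1.23 (limma adjusted p = 0.00273). A second L1cam probe set, 1421958_at, was below the limit (3 to 30 in wild-types and 11 to 37 in knockouts) and its groups overlapped. When both probe sets were averaged the difference was 0.72 and the call ended (limma adjusted p = 0.0515). It also ended with the integrity ratio as a covariate (0.0535).

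**Figure D2:**
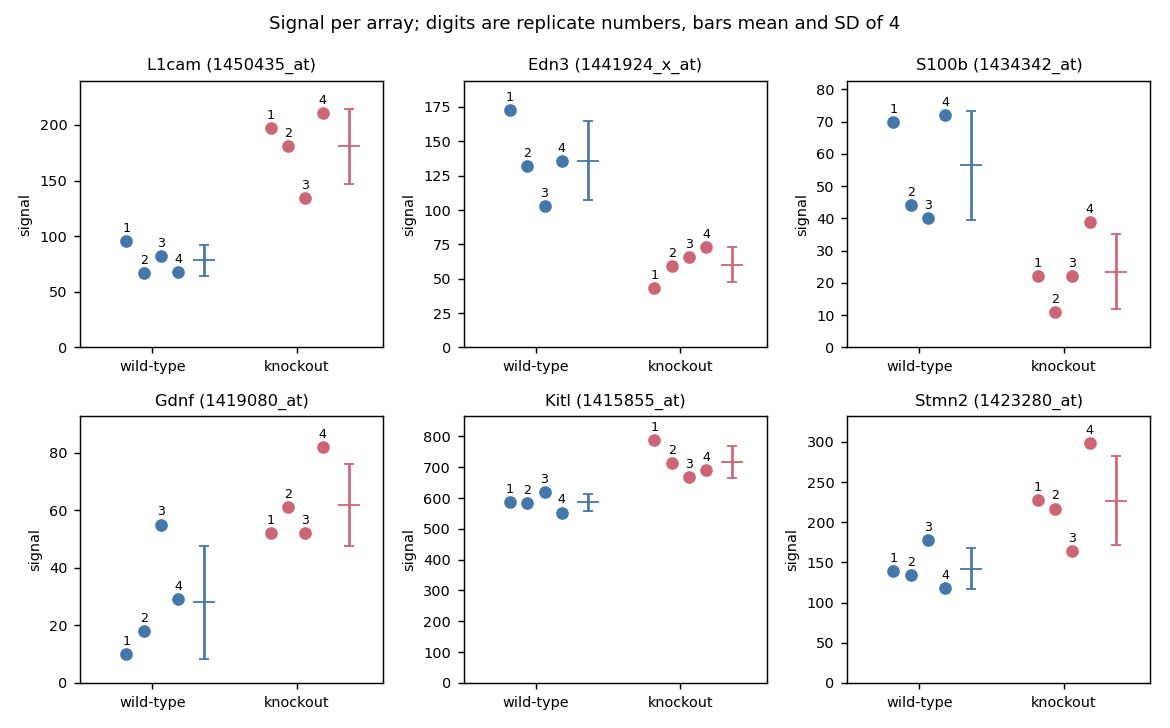
Signal of 6 probe sets on each array, with wild-type and knockout apart, replicate numbers beside the points, and bars for the mean and SD of 4 arrays. The groups do not overlap for L1cam, Edn3, S100b and Kitl, while Gdnf and Stmn2 overlap through wild-type replicate 3 and, for each, low knockout arrays.

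Because Plagl2 encodes a sequence-specific DNA-binding factor, the 250 bases before the start of each called gene are shown, from RefSeq on GRCm38.p6. Capitals mark matches to the core of PLAG family motifs, GGGGC or GAGGC followed by 6 to 8 bases and GGG, searched on both strands, so that matches on the other strand read as CCC and then GCCCC or GCCTC. L1cam has more than 1 listed start, of which 1 is shown, at chrX:73880791-73881040 on the minus strand. Those of S100b and Edn3 are chr10:76253586-76253835 and chr2:174760369-174760618, both on the plus strand.
L1cam: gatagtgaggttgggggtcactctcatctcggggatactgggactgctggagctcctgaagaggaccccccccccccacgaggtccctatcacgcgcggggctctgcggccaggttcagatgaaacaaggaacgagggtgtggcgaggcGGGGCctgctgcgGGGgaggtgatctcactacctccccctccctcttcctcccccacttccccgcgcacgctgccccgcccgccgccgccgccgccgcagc
S100b: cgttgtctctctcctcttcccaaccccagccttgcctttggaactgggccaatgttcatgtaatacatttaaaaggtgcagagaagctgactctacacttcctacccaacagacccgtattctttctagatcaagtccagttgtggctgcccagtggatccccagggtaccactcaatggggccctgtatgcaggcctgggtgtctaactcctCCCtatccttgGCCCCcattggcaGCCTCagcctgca
Edn3: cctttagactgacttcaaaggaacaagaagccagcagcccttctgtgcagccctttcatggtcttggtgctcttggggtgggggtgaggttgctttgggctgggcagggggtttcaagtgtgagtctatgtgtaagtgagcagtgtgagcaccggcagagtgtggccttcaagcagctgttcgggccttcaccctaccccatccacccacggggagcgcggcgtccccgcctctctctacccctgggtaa

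The L1cam window held 1 match, 101 bases before the start, in a sequence of 69.6% G and C. The S100b window held 2 overlapping matches on the other strand, and the Edn3 window held none. Of the 30 members with a promoter in the table, 10 (33.3%) had at least 1 match in a listed promoter, against 21.9% of all 27025 genes. Among the other members with a match were Phox2a with 3 and Ano1 with 2, neither of them called. A match is a run of letters and was not tested as a binding site.

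Among the ligands and receptors that guide crest cells, Edn3 was the called gene, and its probe sets did not move together. Probe set 1441924_x_at, the brightest, gave 173, 132, 103 and 136 in wild-type replicates 1 to 4 and 43, 59, 66 and 73 in knockout replicates 1 to 4. All knockout arrays were below all wild-type arrays (log2 difference -0.99 ± 0.18 SE, 95% interval -1.38 to -0.60, limma adjusted p = 0.00319). The tested probe set 1438696_at gave 20, 39, 33 and 19 in wild-types and 33, 36, 27 and 73 in knockouts, with groups that overlap (0.38, adjusted p = 0.400). Probe set 1441923_s_at, too dim to test, gave 5 to 21 in wild-types and 30 to 43 in knockouts, so there every knockout array was the higher. The dim 1421136_at gave 1 to 25 and 14 to 36. Averaged over its 4 probe sets, Edn3 had a difference of 0.19 (adjusted p = 0.455). The direction of Edn3 thus depends on the probe set read, and the suffix _x_at marks a set whose probes can match other transcripts. With the integrity ratio as a covariate the call of 1441924_x_at also ended (0.0988).

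**Figure D3:**
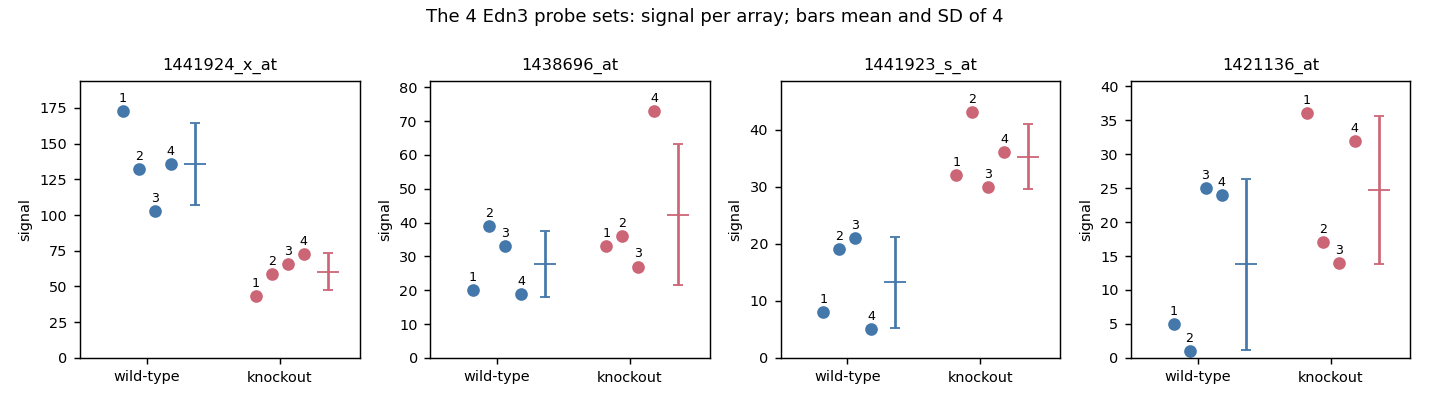
Signal of the 4 Edn3 probe sets on each array, wild-type and knockout apart, with mean and SD of 4 arrays; each panel has its own scale. The first panel has all knockouts below all wild-types (43 to 73 against 103 to 173), and the third has all knockouts above (30 to 43 against 5 to 21).

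The receptor gene Ednrb was bright and varied little. It gave 1316, 1201, 1472 and 1271 in wild-types and 1649, 1655, 1360 and 1479 in knockouts, with overlapping groups (log2 difference 0.22, 95% interval 0.01 to 0.43, limma adjusted p = 0.175). Its other tested probe sets had estimates of the same sign. Gdnf was low on most wild-type arrays, at 10, 18, 55 and 29, and gave 52, 61, 52 and 82 in knockouts. Only wild-type replicate 3 reached the knockout values. The log2 difference was 0.91 ± 0.28 (SE, 95% interval 0.29 to 1.53, limma adjusted p = 0.0603), and without wild-type replicate 3 it was 1.17 and passed (0.00764). Gdnf also passed with array weights (1.04, 0.0118). With the integrity ratio as covariate it was the single member called higher (1.602, adjusted p = 0.0248). That fit cannot cleanly separate the ratio from genotype. With the mean smooth muscle level of each array as covariate, itself higher on average in knockouts, the Gdnf difference was 0.56 (0.359). The size of this difference depends on the added 16, because the wild-type signals are of that order.

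For the receptor side of the GDNF pathway no member passed. Ret gave 110 to 180 in wild-types and 95 to 153 in knockouts (log2 difference -0.13, 95% interval -0.55 to 0.29, limma adjusted p = 0.721). Its dimmer probe set 1421359_at gave 103, 112, 85 and 75 in wild-types and 72, 52, 56 and 71 in knockouts. There the groups did not overlap, and the log2 difference of -0.48 missed the threshold (limma adjusted p = 0.0830). The co-receptor gene Gfra1 gave 9 to 42 and 16 to 74 (0.54, adjusted p = 0.354). With the Xist signal as a covariate the small Ret difference turned to 0.09.

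The 3 transcription factors of crest cells tested did not pass either, and 0 had an unadjusted p under 0.05. Hand2, a factor for enteric neuron differentiation that gut mesenchyme also expresses, gave 186, 154, 226 and 98 in wild-types and 313, 239, 142 and 324 in knockouts. Knockout replicate 3 was the lowest knockout and lay within the wild-type range. The log2 difference was 0.56 ± 0.27 (SE, limma adjusted p = 0.211), and without knockout replicate 3 it was 0.80 and passed (0.0441). Phox2a, which specifies autonomic neurons, gave 12 to 57 and 26 to 61 (0.27, adjusted p = 0.633). Sox10, the factor that crest progenitors and glia share, had tested probe sets of opposite sign (0.39 and -0.12). Foxd3 ranged over 5 to 48 in all arrays and was not tested.

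Genes of neuronal structure made up the largest group, with 12 tested, 1 called higher and 0 lower (6.6% and 8.5% of all genes were). Estimates were above 0 for 11 of the 12, with a median of 0.51, Tubb3 being the exception. Tubb3, the neuronal beta-tubulin, gave 48 to 76 and 54 to 64, which leaves an interval of -0.35 to 0.34. The RNA-binding proteins of the Elavl family, which bind messages in neurons, had similar estimates: 0.68 for Elavl2, 0.52 for Elavl3 and 0.68 for Elavl4. Elavl4 gave 71, 32, 85 and 52 in wild-types and 122, 86, 78 and 126 in knockouts, so that only wild-type replicate 3 and knockout replicate 3 crossed (limma adjusted p = 0.0878). A dimmer Elavl2 probe set had the opposite sign (-0.16), while all 3 tested Elavl4 probe sets were positive.

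Stmn2, a microtubule regulator of growing axons, stood at the threshold. Its 1423280_at gave 139, 134, 178 and 118 in wild-types and 228, 217, 164 and 298 in knockouts. Wild-type replicate 3 and knockout replicate 3 overlapped. That probe set rose, as did 5.28% of all probe sets tested, with 6.7% lower and 12% either way (log2 difference 0.60 ± 0.17 SE, limma adjusted p = 0.0442), while the slightly brighter 1423281_at gave 0.36 (0.223). The call of 1423280_at was lost when any array other than replicate 3 of either genotype was left out (0.0966 to 0.125). It ended too with the replicate number as a block (0.144).

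The intermediate filaments of axons were alike in estimate and wide in spread. Nefl gave 53, 41, 88 and 38 in wild-types and 111, 120, 38 and 140 in knockouts, where replicate 3 was as low as the lowest wild-type (log2 difference 0.68, 95% interval -0.02 to 1.38, limma adjusted p = 0.206). Prph, the filament of peripheral neurons, was also highest on wild-type replicate 3 among wild-types and lowest on knockout replicate 3 among knockouts, with 55, 37, 103 and 55 against 103, 129, 42 and 142 (0.58, adjusted p = 0.284). Nefm, the medium neurofilament subunit, had 0.47 (0.148). Stmn3 (0.50), Uchl1 (0.50), a ubiquitin hydrolase abundant in neurons, and Gap43 (0.45) were also not called, at adjusted p = 0.148 to 0.303.

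Of the synaptic genes, Syt1, the calcium sensor of vesicle release, gave 42, 58, 81 and 41 in wild-types and 86, 77, 54 and 108 in knockouts (log2 difference 0.45, 95% interval -0.03 to 0.93, limma adjusted p = 0.227). Its 3 tested probe sets were all positive. Snap25, of the vesicle fusion complex, gave 28 to 62 and 39 to 121 (0.33, adjusted p = 0.516).

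Transmitter and peptide genes had smaller estimates, with a median of 0.16 and 0 of 7 called. At an unadjusted p under 0.05, 1 was higher and 0 were lower, where all genes had 14.7% and 15%. Vip, the peptide of inhibitory motor and secretomotor neurons, gave 129, 133, 156 and 142 in wild-types and 232, 197, 140 and 167 in knockouts. Knockout replicate 3 alone fell within the wild-type range (log2 difference 0.34, 95% interval 0.01 to 0.67, limma adjusted p = 0.183). Nos1, which makes nitric oxide in inhibitory neurons, had -0.21 and a second probe set at 0.09. Intervals were -0.19 to 0.63 for Cartpt and -0.23 to 0.54 for Gal, both peptides of enteric neurons, and -0.52 to 0.63 for Npy. The catecholamine enzymes Th (0.15) and Dbh (0.49) were dim, and the tested Dbh probe sets differed in sign.

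Of the 3 glial members tested, 1 was called lower (8.5% of all genes were) and 1 had an estimate above 0. S100b (1434342_at) gave 70, 44, 40 and 72 in wild-types and 22, 11, 22 and 39 in knockouts, with the highest knockout just under the lowest wild-type. Its mean log2 value was 6.15 in wild-types and 5.26 in knockouts, while the lowest mean tested was 5.29. The probe set thus passed the limit on dim signals only through the wild-type arrays. The log2 difference was -0.89 ± 0.25 (SE, 95% interval -1.44 to -0.35, limma adjusted p = 0.0379). The dim probe set 1419383_at gave 50, 27, 6 and 17 against 8, 8, 4 and 2, lower on average but with overlap. This call was lost when any 1 of 6 arrays was left out, which were knockout replicates 1 to 3 and all wild-types but replicate 3 (0.0580 to 0.116). In the 6 arrays without Xist signal the difference was -0.64 (adjusted p = 0.197). It ended as well with no filter (0.0786) and with the integrity ratio as a covariate (0.276).

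Erbb3, the neuregulin receptor of crest-derived glia, which epithelium expresses too, was bright at 959 to 1283 in wild-types and 1280 to 1822 in knockouts (log2 difference 0.30, limma adjusted p = 0.171). Its knockout replicate 3 was the highest array, unlike in most neuronal genes. The second Erbb3 probe set was of the opposite sign (-0.20). Gfap had -0.24, with an interval of -0.93 to 0.44.

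The 3 pacemaker genes tested had positive estimates and no call, with 2 higher at an unadjusted p under 0.05 (14.7% of all genes were). Kitl, the ligand that keeps interstitial cells of Cajal alive, gave 588, 584, 621 and 553 in wild-types and 789, 715, 669 and 691 in knockouts. These groups did not overlap, yet the log2 difference of 0.28 ± 0.09 (SE, 95% interval 0.08 to 0.48) missed the threshold (limma adjusted p = 0.0722). The other 3 Kitl probe sets had estimates of -0.08 to 0.03. Kit gave 63, 88, 83 and 45 against 100, 120, 77 and 169 (0.61, adjusted p = 0.112), and Ano1 gave 78, 53, 82 and 59 against 118, 141, 47 and 127 (0.50, adjusted p = 0.265). In both, knockout replicate 3 lay inside the wild-type range or under it. Without that array both passed, Kit at 0.77 (0.0469) and Ano1 at 0.80 (0.0105). The other Ano1 probe set, 1426571_at, went the opposite way. It was too dim to test and gave 19 to 36 in wild-types and 5 to 21 in knockouts, with overlap.

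Counting all members tested, 4 of 35 had groups that did not overlap, against 19.9% of all genes. Of these, 2 were higher and 2 lower in the knockout, against 8.88% and 11.1% of all genes. Of 16 members with more than 1 tested probe set, 9 had estimates of the same sign throughout and 7 did not.

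A list of 77 further genes, which excludes the members, also held few calls. It covers the same cells, with some genes of fibroblast-like cells, such as P2ry1, counted in its pacemaker part. Of 53 tested, 0 were higher and 2 lower (6.6% and 8.5% of all genes were), with 37 estimates above 0 and a median of 0.17. At an unadjusted p under 0.05, 9 were higher and 5 lower, where all genes had 14.7% and 15%. By cell type, the 40 neuronal genes of this list had 28 estimates above 0 and a median of 0.16. The 7 glial genes had 5 and 0.16, and the 6 genes of the pacemaker part 4 and 0.19. Entpd2, an ectonucleotidase of enteric glia that other gut cells share, gave 308, 342, 262 and 348 in wild-types and 153, 149, 198 and 123 in knockouts. It fell, with no overlap (log2 difference -0.96 ± 0.15 SE, limma adjusted p = 0.00115), and kept its call under all 21 alternatives. P2ry1, a purine receptor of fibroblast-like cells that relay inhibitory signals, fell from 100, 93, 79 and 91 to 66, 54, 61 and 50 (-0.53 ± 0.14 SE, adjusted p = 0.0291). Its call held in 10 of 21 alternatives. Ncam1, a neural adhesion molecule, did not overlap between groups (183 to 264 against 265 to 394) but missed the threshold (0.50, adjusted p = 0.0546).

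The spread within each genotype had a common order across neuronal genes. Among the 21 neuronal members tested, wild-type replicate 3 was the highest wild-type for 13 and replicate 4 the lowest for 12. Knockout replicate 3 was the lowest knockout for 17 and replicate 4 the highest for 13. Over all 12838 genes, by comparison, knockout replicate 3 was the lowest knockout for 36.9% and wild-type replicate 3 the highest wild-type for 33.9%.

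Muscle and connective tissue genes had this same order. In 11 tested smooth muscle genes wild-type replicate 3 was highest for 10, wild-type replicate 4 lowest for 8, knockout replicate 3 lowest for 10 and knockout replicate 4 highest for 8. In 6 fibroblast genes the same 4 counts were 5 each. The 8 epithelial genes had another order, with wild-type replicate 3 the lowest wild-type for 8 and knockout replicate 3 the highest knockout for 7. The mean log2 value of the smooth muscle list was 9.04, 8.92, 9.41 and 8.76 in wild-types and 9.51, 9.53, 8.99 and 9.71 in knockouts. That of the neuronal members was 6.39, 6.24, 6.63 and 6.16 and 6.91, 6.75, 6.37 and 7.002. In both lists, knockout replicate 3 fell among the wild-types.

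The smooth muscle list had 11 of 11 estimates above 0, a median of 0.49 and 1 call, Smtn (0.67, limma adjusted p = 0.0159). The fibroblast list had 6 of 6 above 0, a median of 0.33 and 1 call, Pdgfrb (0.40, adjusted p = 0.0228). Both calls were higher, as were 6.6% of all genes. The summed signal of 12 smooth muscle genes ranged over 10561 to 17154 in wild-types and 12800 to 20833 in knockouts. With the mean smooth muscle level of each array as a covariate, an alternative chosen after seeing the data, 18 of 35 members were above 0 and their median was 0.02. All genes then had a median of -0.03. The covariate itself averaged 9.43 in knockouts and 9.03 in wild-types, so this fit cannot cleanly separate it from genotype. In that fit L1cam stayed higher (0.80), Edn3 1441924_x_at stayed lower and Erbb3 was called higher (0.57, adjusted p = 0.00196).

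**Figure D4:**
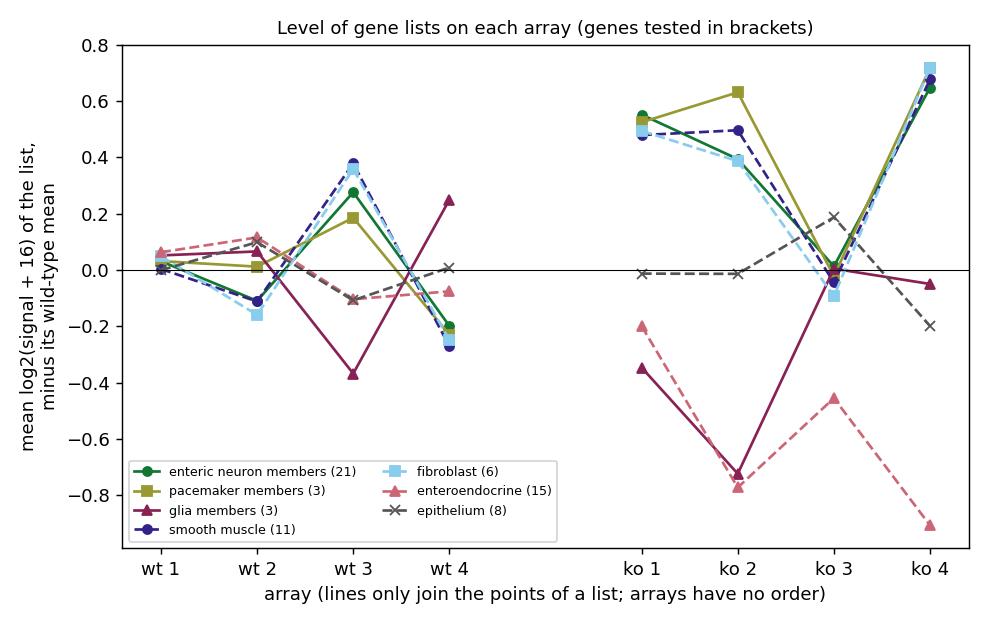
Mean log2(signal + 16) of the tested genes of each list on each array, minus the list's mean over the wild-type arrays; lines only join points of a list. Neuronal members, smooth muscle and fibroblast genes are high on wild-type replicate 3 and low on knockout replicate 3, while the 3 glial members are lowest among wild-types on replicate 3 and the enteroendocrine genes lie lower on all knockout arrays than on any wild-type array.

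Other cells that share genes with the members gave other values. Beside the counts below, 6.6% of all genes tested were called higher and 8.5% lower. Enteroendocrine cells, which use many neuronal secretory genes, had 5 of 15 tested genes lower, 0 higher and a median of -0.50, among them the granule protein gene Chgb (-1.04) and the hormone gene Sct (-1.11). Mast cells share Kit, and 9 of their 11 genes were below the limit on dim signals, at 49 or less on every array. Melanocytes share Kit, Sox10 and Ednrb: 4 of their 6 genes were below that limit, at 41 or less. The melanocyte enzyme gene Dct, however, fell from 183, 192, 80 and 188 to 19, 23, 13 and 23 (-2.26, limma adjusted p = 9.07e-05). Its mean log2 value was 7.40 in wild-types and 5.14 in knockouts, the latter under the lowest mean tested (5.29). Dct thus passed the limit on dim signals only through the wild-type arrays. Sympathoadrenal genes had 1 of 5 higher, Ddc (0.46, adjusted p = 0.0419), and 0 lower. Only 2 of these 5 estimates were above 0, and their median was -0.15. Pancreatic genes varied more between arrays of 1 genotype than any other list, with Cpa1 at 16 to 336 in wild-types and 62 to 529 in knockouts, and 0 of 6 were called (0 at an unadjusted p under 0.05). Epithelial genes had 2 of 8 higher and 1 lower, with a median of -0.02. The 6 endothelial genes had 0 called, 0 at an unadjusted p under 0.05, and a median of 0.09. The part of any of these cells in the values of the members was not tested.

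The number of members called higher turned on 2 arrays. Without wild-type replicate 3 it was 6 (Elavl2, Elavl4, Gdnf, Kitl, L1cam and Stmn3), while 9.30% of all genes were called higher. Without knockout replicate 3 it was 7 (Ano1, Hand2, Kit, L1cam, Nefl, Prph and Stmn2), while 7.16% of all genes were. L1cam was the gene these sets shared. With any other array left out it was 1. With array weights, which give arrays that stand apart less weight, 13 members were called higher, while 11.7% of all genes were. The number called lower was 1 or 2 with any array left out.

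**Figure D5:**
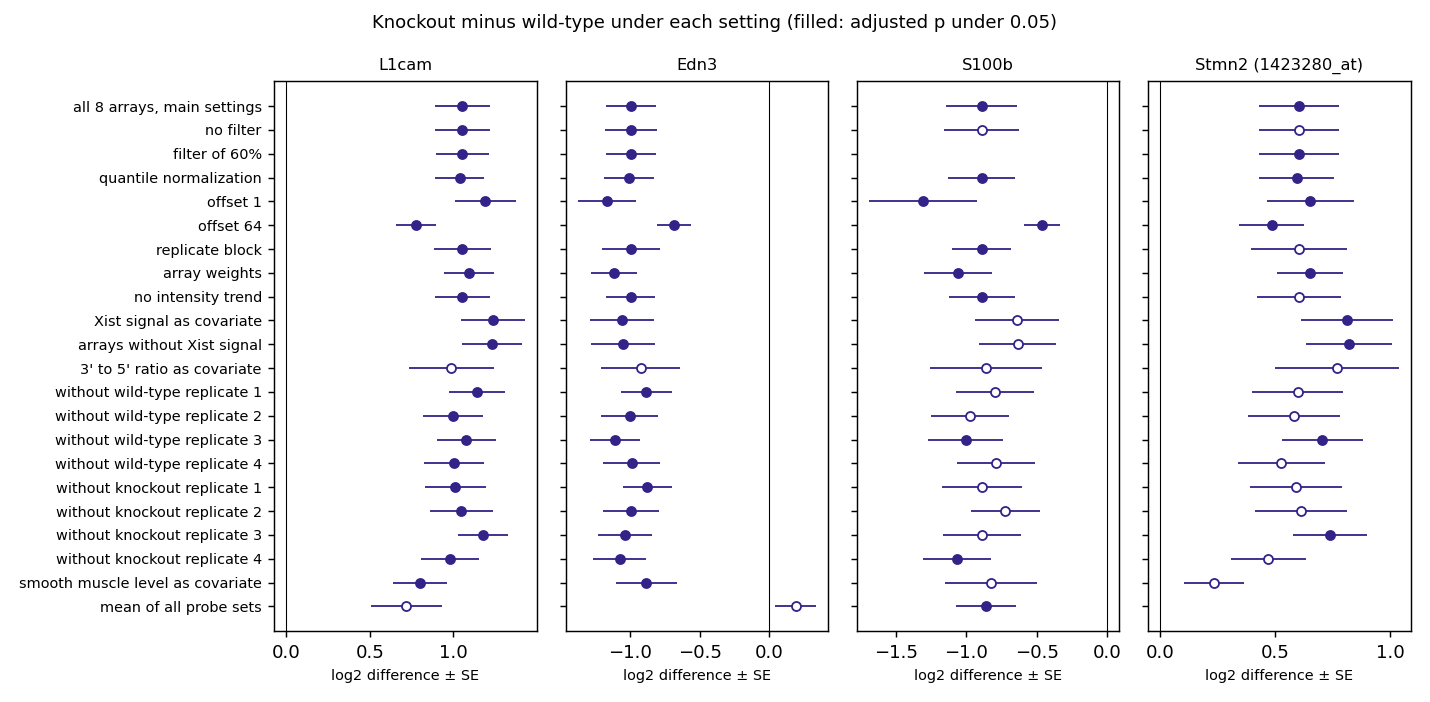
Log2 difference between knockout and wild-type with its SE under each setting for L1cam, Edn3 (1441924_x_at), S100b and Stmn2 (1423280_at); filled points have an adjusted p under 0.05. L1cam lies above 0 throughout (0.72 to 1.24), Edn3 turns to 0.19 with the mean of all its probe sets, and S100b and Stmn2 lose their fill under many settings.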

How the data were processed

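Per the deposited table, each array has a linear signal intensity for every probe set, which the authors scaled so that all columns share a trimmed mean; the signal algorithm was not named in the labels. After removal of 64 control probe sets, log2(signal + 16) was taken. Array medians lay within 0.158 of each other, below the 0.32 at which a normalization would have been added. The dimmest 40% of probe sets by mean were dropped, which kept 27023 of 45037. Genotype alone was fitted with lmFit and a trended eBayes (limma 3.58.1, R 4.3.3), and a Benjamini-Hochberg adjusted p under 0.05 was a call. For genes with several tested probe sets the brightest by mean was read. Differences on this scale understate changes of dim genes, and the number of arrays limits the precision.

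Members and lists were chosen with earlier results of these data known. By rule, per-array values are given for called members and for the smallest p in a role group with no call; those of other members, and the genes named from lists of other cells beyond the brightest 3, were chosen after their values were seen. Symbols come from the platform annotation: 34958 probe sets have 1 symbol, 932 several and 9211 none. The fitting script was tested on simulated data. Alternatives changed the filter (none, 60%), the offset (1, 64), the normalization (quantile), the trend, or the weights of arrays; added the replicate number, Xist or the RNA integrity ratio to the model; averaged each gene's probe sets; or left out the Xist-positive arrays or any 1 array. A smooth muscle covariate was tried later.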

Additional observations from a re-analysis of the deposited data

Results flagged for a closer look

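In 3 of the 70 groups of 4 arrays examined (35 members, both genotypes), 1 array lay far from the other 3; chance alone flags about 1 group in 20. For Stmn2 (1423281_at) knockout replicate 3 gave 149, against 229 to 249 in the other knockouts. For Stmn3 the same array gave 102, against 167 to 177. For Snap25 wild-type replicate 4 gave 28, against 59 to 62. Those arrays are also the lowest of their genotype in the smooth muscle list; the part of tissue make-up in these values was not tested.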

How the results depend on the processing

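With 35 members and 21 alternatives, counts of calls moved and single directions mostly did not. Probe sets called higher, 1427 of all tested, were 751 with the replicate number as a block, 2631 with array weights, 755 with the Xist covariate, 820 in arrays without Xist signal, 471 with the integrity covariate, and 880 to 2082 with 1 array left out. Those called lower, 1811, were 1164 with the block and 919 with the integrity covariate. Members called higher (1, L1cam) were 1 with the integrity covariate, then Gdnf in place of L1cam, 13 with array weights, 2 in arrays without Xist signal and with the smooth muscle covariate, 0 with the mean of all probe sets, and 1 to 7 with 1 array left out. Members called lower (2) were 1 with no filter, the 60% filter, either Xist setting, the smooth muscle covariate and the mean of all probe sets, 0 with the integrity covariate, and 1 to 2 with 1 array left out. Other enteric genes called higher (0) were 1 with the 60% filter and the mean of all probe sets, 6 with array weights, 3 with the Xist covariate, 4 in arrays without Xist signal, and 0 to 7 with 1 array left out. Those called lower (2) were 5 with array weights, 1 with no filter, the block, either Xist setting, the integrity covariate and the smooth muscle covariate, and 1 to 3 with 1 array left out.

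Signs turned as follows, in log2 differences, with the cause not tested. With the smooth muscle covariate, chosen after seeing the data, they were Gfra1 -0.13, Phox2a -0.028, Hand2 -0.058, Stmn2 -0.0034, Stmn3 -0.016, Nefl -0.089, Prph -0.14, Gap43 -0.12, Snap25 -0.19, Cartpt -0.069, Gal -0.059, Ano1 -0.040 and Gfap 0.18. With the Xist covariate and without the Xist arrays, Ret was 0.089 and 0.080, Nos1 0.071 and 0.070, and Tubb3 0.058 and 0.050. Tubb3 was 0.049 with array weights and 0.053 with the integrity covariate, where Gal was -0.045. Npy was -0.049 with array weights, and Edn3 0.19 with the mean of all probe sets. With 1 array left out, Phox2a ranged over -0.031 to 0.46, Tubb3 over -0.088 to 0.087, Npy over -0.13 to 0.23 and Gfap over -0.42 to 0.030.

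Replicate numbers did not pair the arrays: deviations of same-numbered arrays from their group means correlated at -0.01, -0.05, -0.27 and -0.12, and no wild-type array correlated best with the knockout of its own number. With the replicate block 1 member was called higher and 2 lower, as without it. Most members have signals under 200, near the range where noise is large, which limits what 4 arrays a group can show, and sex differs between the genotypes.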
